A study of Mus musculus with 8 samples.

Results

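Rtp1, Rtp2, Reep1 and Ric8b are the genes described here. They encode proteins that bring odorant receptors (ORs) to the cell surface or prepare the G protein that ORs activate. Each of the 4 members is measured by 1 row of the array table. Each row was found by its gene symbol alone, out of 21789 rows with 1 symbol and 35557 rows in all. The genes themselves were picked with earlier results of these data known. The samples were olfactory mucosa of mice on postnatal day 1, of a mixed 129 and C57BL/6J background, with 4 knockout and 4 control samples and 1 Affymetrix Mouse Gene 1.0 ST array per sample. Knockouts were 123Cre:Emx2(fl/fl), with both Emx2 alleles floxed and a Cre transgene. Controls were labelled as littermates, and in them at most 1 allele can recombine: replicates 1 and 4 were 123Cre:Emx2(fl/+), with Cre and 1 floxed allele, and replicates 2 and 3 were Emx2(fl/fl), with both alleles floxed and no Cre. Every animal thus carried at least 1 floxed Emx2 allele. Per the study, the 123Cre transgene is first active in immature olfactory sensory neurons (OSNs). In the study's reporter mice it recombined in only part of the cells of the OSN layers. Per the study's methods, both sexes were used, and the knockout litters also gave controls. The labels tie no sample to a litter, a sex or a number of animals, so a p-value covers only the sample-to-sample spread, part of which may be technical.

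An OR is a G-protein-coupled receptor that leaves the endoplasmic reticulum (ER) poorly when it is made in most other cells. Rtp1 and Rtp2, receptor transporting proteins of a single membrane pass, bind ORs and promote their passage to the plasma membrane, and loss of both disturbs OR surface expression and OR choice in mice. Reep1, found in the same search for OR cofactors, belongs to a family of hairpin proteins that shape ER tubules, and its human counterpart is mutated in a hereditary spastic paraplegia. Ric8b is a chaperone and exchange factor of the stimulatory G protein alpha subunits and stabilizes Golf, the OSN subunit encoded by Gnal, through which ORs raise cyclic AMP. The homeodomain factor Emx2 was the target of the deletion, and the study asked how its loss in OSNs alters OR expression. The comparison here asks whether the mRNAs of the OR trafficking proteins differ with it.

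Rtp1 and Rtp2 lie on chromosome 16 in RefSeq's annotation of GRCm38.p6, with Masp1, Rtp4 and Sst as the protein-coding genes between them and Bcl6 next to Rtp2. RefSeq's promoter table held 3 of the 4 members, Rtp2, Reep1 and Ric8b. Their 250 bases before the annotated start, on the strand of the gene, are shown because OR genes are known for homeodomain and Olf1/Ebf sites before their starts. The sequences were searched on both strands for TAATTA, a core bound by many homeodomain factors, and for CCCNNGGG, the core of Olf1/Ebf sites, which reads the same on both strands. Capitals mark the matches, all of them to CCCNNGGG:
Rtp2, chr16:23930795-23931044, minus strand: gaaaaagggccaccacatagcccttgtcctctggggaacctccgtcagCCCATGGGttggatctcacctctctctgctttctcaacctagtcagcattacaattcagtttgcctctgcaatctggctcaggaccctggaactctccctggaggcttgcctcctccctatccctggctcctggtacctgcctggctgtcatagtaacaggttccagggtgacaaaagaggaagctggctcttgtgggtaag
Reep1, chr6:71707431-71707680, plus strand: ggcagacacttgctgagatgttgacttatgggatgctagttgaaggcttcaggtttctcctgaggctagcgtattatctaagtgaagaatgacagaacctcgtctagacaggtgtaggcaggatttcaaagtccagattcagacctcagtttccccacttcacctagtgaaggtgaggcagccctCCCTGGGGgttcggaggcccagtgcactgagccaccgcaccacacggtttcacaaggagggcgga
Ric8b, chr10:84917363-84917612, plus strand: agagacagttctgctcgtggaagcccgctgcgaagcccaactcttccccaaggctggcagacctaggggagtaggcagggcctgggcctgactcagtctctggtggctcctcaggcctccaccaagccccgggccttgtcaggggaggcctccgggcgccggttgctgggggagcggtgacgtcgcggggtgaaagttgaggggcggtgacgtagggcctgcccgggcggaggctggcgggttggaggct
CCCNNGGG stood 202 to 195 bases before the start of Rtp2 and 65 to 58 bases before that of Reep1, and was not found in the window of Ric8b. TAATTA was found in none of the 3 windows. Of all 32851 promoters of the table, 11.8% held CCCNNGGG and 4.84% held TAATTA in the same 250 bases. The Ric8b window was the richest in G and C, at 69.2%, against 54.8% for Rtp2 and 53.2% for Reep1.

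The values were log2 values as deposited, and differences are knockout minus control on that scale. Emx2 itself fell in the knockouts, to 9.90 ± 0.089 from 10.84 ± 0.12 (SD, n = 4 each; limma adjusted p = 0.0014), with no overlap. Omp, the marker of mature OSNs, averaged 12.88 and 12.94, and all 14 measured mature OSN genes stood above the dimmest 30% of rows in the controls. Gap43, a marker of immature OSNs, differed by -0.23 (limma adjusted p = 0.564). Its knockouts, at 11.25 to 11.41, lay below its controls, at 11.48 to 11.65, as was so for 2.54% of all rows. Lhx2, another homeodomain gene, differed by 0.00. The array of knockout replicate 2 was unlike the others. It correlated with them at 0.978 on average, where the remaining arrays had averages of 0.987 to 0.990, and its limma array weight was 0.17 where theirs ran from 0.655 to 2.84.

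Rtp2 mRNA was lower in all 4 knockouts than in any control, and it was the member with the largest difference. The controls read 10.92, 10.95, 10.98 and 10.88 for replicates 1 to 4, and the knockouts 10.57, 10.68, 10.38 and 10.50. Knockout replicate 2 was the closest to them, and the gap between the lowest control and the highest knockout was 0.198. The means were 10.53 ± 0.13 and 10.93 ± 0.044 (SD, n = 4 each), a difference of -0.40 (SE 0.078), or -24.2% in mRNA (95% interval -33.0% to -14.3%). With limma over 23410 rows the unadjusted p was 0.000661 and the adjusted p was 0.128, so the difference did not pass across all rows. It had the lowest p of the members and stood at place 121 among all rows tested. An exact permutation test on this gene alone gave p = 0.0286, the smallest that 4 against 4 samples allow. The members were picked with earlier results on Rtp2 known. This p-value and the later ones for Rtp2 therefore describe it and are no independent test. The call of Rtp2 depended on knockout replicate 2. Without that sample the difference was -0.45 (limma adjusted p = 0.0362), and with array weights it was -0.46 (limma adjusted p = 0.00738). More rows passed in these fits too, 132 and 224 against 84 in the main fit. Over the other alternatives the adjusted p ran up to 0.998.

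Rtp1, the closest relative of Rtp2 among the members, did not differ beyond its spread. The controls read 12.33, 12.49, 12.60 and 12.35 and the knockouts 12.28, 12.49, 12.37 and 12.49, and the groups overlapped. The difference was -0.04 (SE 0.087, 95% interval -0.23 to 0.16, limma adjusted p = 1.0), and the exact permutation test gave p = 0.686 (n = 4 each). The interval leaves room for changes from -14.9% to 11.9%. The controls of the 2 genotypes did not interleave for Rtp1. The Emx2(fl/fl) samples averaged 12.55 and the 123Cre:Emx2(fl/+) samples 12.34, with the knockouts between them at 12.41. In a fit of 3 genotypes, the difference of 123Cre:Emx2(fl/+) from Emx2(fl/fl) was -0.21 (SE 0.11, limma adjusted p = 0.997). Against the controls with Cre the knockout difference was 0.07, and against those without Cre it was -0.14, so its sign depended on the control genotype.

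Reep1 mRNA was nearly even across the knockouts. They read 10.25, 10.27, 10.24 and 10.24, an SD of 0.0149 (n = 4), and the controls 10.27, 10.47, 10.31 and 10.27. No knockout reached a control, but by a margin of 4e-05 between knockout replicate 2 and control replicate 4, so the groups all but touch. Control replicate 2 was the highest. The difference was -0.08 (SE 0.068, 95% interval -0.24 to 0.07, limma adjusted p = 0.993). The exact permutation p of 0.0286 (n = 4 each) reflects the order of the samples alone, with a difference of -5.51%. Both Emx2(fl/fl) controls lay above both 123Cre:Emx2(fl/+) controls for Reep1 too. For Rtp2 the order was the same, at 10.95 and 10.98 against 10.92 and 10.88. For Ric8b it was the reverse, at 12.01 and 12.09 against 12.14 and 12.27. With 2 samples per genotype such an order weighs little, and its share over all rows was not counted. The Reep1 difference was -0.02 against the controls with Cre and -0.14 against those without. Control replicate 2 carried much of the Reep1 difference, and without that sample it was -0.035.

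Ric8b mRNA was lowest in knockout replicate 2 and otherwise mixed. The controls read 12.14, 12.01, 12.09 and 12.27 and the knockouts 12.20, 11.64, 11.98 and 12.26. The other 3 knockouts lay between 11.98 and 12.26, within or next to the control range. The knockout SD of 0.28 was the widest of the members. The difference was -0.11 (SE 0.14, 95% interval -0.42 to 0.20, limma adjusted p = 1.0; exact permutation p = 0.60, n = 4 each), and it was 0.02 without knockout replicate 2. Ric8b was also the member with the widest spread within groups, at a pooled SD of 0.214 against a median of 0.153 over all rows tested, while Rtp1, Rtp2 and Reep1 lay below that median at 0.116, 0.0943 and 0.0682.

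**Figure D1:**
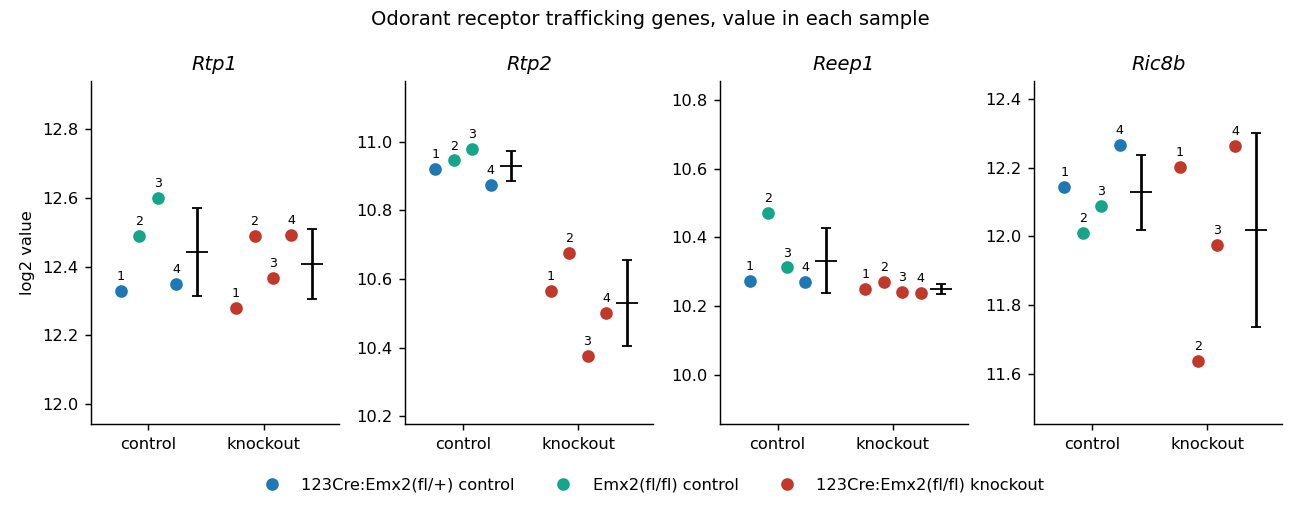
Deposited log2 value (vertical axis, panels of equal span) of Rtp1, Rtp2, Reep1 and Ric8b in 4 control and 4 knockout samples, where each numbered point is 1 sample in the color of its genotype and the bar beside the points gives mean and SD. Rtp2 lies at 10.38 to 10.68 in knockouts and 10.88 to 10.98 in controls, while Rtp1 and Ric8b overlap and Reep1 nearly touches.

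Over the members, 0 of 4 passed at an adjusted p under 0.05 in limma, where 0.359% of all 23410 rows passed, 0.35% with lower and 0.00854% with higher knockouts. The count was also 0 of 4 with the methods' t-test, which passed 0.12% of all rows. In both, Rtp2 alone had an unadjusted p under 0.05, as did 6.1% of all rows in limma and 7.08% with the methods' t-test. Rows with such a p and lower knockouts in limma made up 3.06% of all rows. Without knockout replicate 2, Rtp2 alone of the members passed, in a fit where 132 rows passed against 84 in the main fit. The knockouts lay below every control for 2 of 4 members, Rtp2 and Reep1, and for 2.54% of all rows, while the groups failed to overlap in either direction for 4.52%. All 4 differences were below 0, against 48.4% of all rows. The median difference of the members was -0.10, against 0.00 over all rows. Since the members were picked with earlier results on Rtp2 known, these counts describe the members and test nothing.

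The paralogs Rtp1 and Rtp2 were compared directly, by the log2 value of Rtp2 minus that of Rtp1 in each sample. This quantity compares a change, since 2 rows of an array share no common scale of level. It was -1.41, -1.54, -1.62 and -1.48 in the controls and -1.71, -1.81, -1.99 and -1.99 in the knockouts, with no overlap. The knockout difference in Rtp2 was thus lower than that in Rtp1 by -0.36 (exact permutation p = 0.0286, n = 4 each, the smallest possible). Without control replicates 1, 2 or 4, the values of -0.33, -0.38 and -0.35 came with an exact permutation p of 0.0571 each (n = 4 and 3). The groups still did not overlap in any of these. With Rtp2 picked beforehand, these p-values too are descriptive. The gene pair shares a chromosomal neighborhood, and the genes between them did not pass either. Rtp4 differed by -0.21 (SE 0.12), Sst, the neuropeptide somatostatin, by -0.11 (SE 0.24), Masp1, a serine protease of the complement system, by 0.01 (SE 0.10), and Bcl6, a transcriptional repressor, by -0.04 (SE 0.077). These neighbors were chosen by position.

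Ric8b was set against Gnal, whose product it stabilizes. Gnal averaged 12.45 in both groups, a difference of 0.00 (SE 0.13), and it was lowest in knockout replicate 2 and control replicate 2, at 12.13 and 12.19. The same 2 samples were the lowest of their groups for Ric8b. Ric8b minus Gnal was -0.38, -0.18, -0.39 and -0.34 in the controls and -0.27, -0.50, -0.54 and -0.43 in the knockouts, which overlapped. The difference of -0.11 gave an exact permutation p of 0.20 (n = 4 each), and -0.16 without knockout replicate 1 gave an exact permutation p of 0.0286 (n = 3 and 4). That sample was the only knockout inside the control range, so leaving it out fixed the smallest possible p. Leaving out any other sample gave an exact permutation p of 0.20 to 0.371.

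Of 14 mature OSN genes, 11 had differences below 0 and 0 passed in limma. The largest difference was that of S100a5, a calcium-binding protein, at -0.52 (SE 0.13, limma adjusted p = 0.308), with knockouts at 12.17 to 12.69 and controls at 12.74 to 12.94. Like Rtp2, S100a5 passed without knockout replicate 2 (-0.64, limma adjusted p = 0.00999) and with array weights (limma adjusted p = 0.00681). In bulk mucosa, fewer OSNs and less mRNA per OSN cannot be told apart from these values. The study itself reports no change in mature or immature OSN numbers in its conditional Emx2 mutants. It normalized to a far longer list of mature OSN mRNAs than the 14 genes used here. These 14 genes hold no member, but they include Ano2, the gene nearest to Rtp2 in pattern. Their mean was 11.42 to 11.56 in the knockouts and 11.51 to 11.64 in the controls, and their median difference was -0.11. Relative to that mean in each sample, Rtp2 was -0.71, -0.56, -0.67 and -0.76 in the controls and -0.92, -0.75, -1.05 and -1.06 in the knockouts. Knockout replicate 2 then stood just inside the control range, and the other knockouts lay below it. The difference in Rtp2 became -0.27 (exact permutation p = 0.0571, n = 4 each), and without knockout replicate 2 it was -0.33 (exact permutation p = 0.0286, n = 3 and 4). Leaving out the only knockout inside the control range fixed that smallest possible p. Without any other sample, the exact permutation p was 0.0571 to 0.0857. On this scale Rtp1 differed by 0.09, Reep1 by 0.05 and Ric8b by 0.02, with exact permutation p-values of 0.314, 0.571 and 0.914 (n = 4 each). All 3 had the opposite sign on the deposited scale. Centring on the mature OSN genes moved the median of all rows from 0.00 to 0.13.

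**Figure D2:**
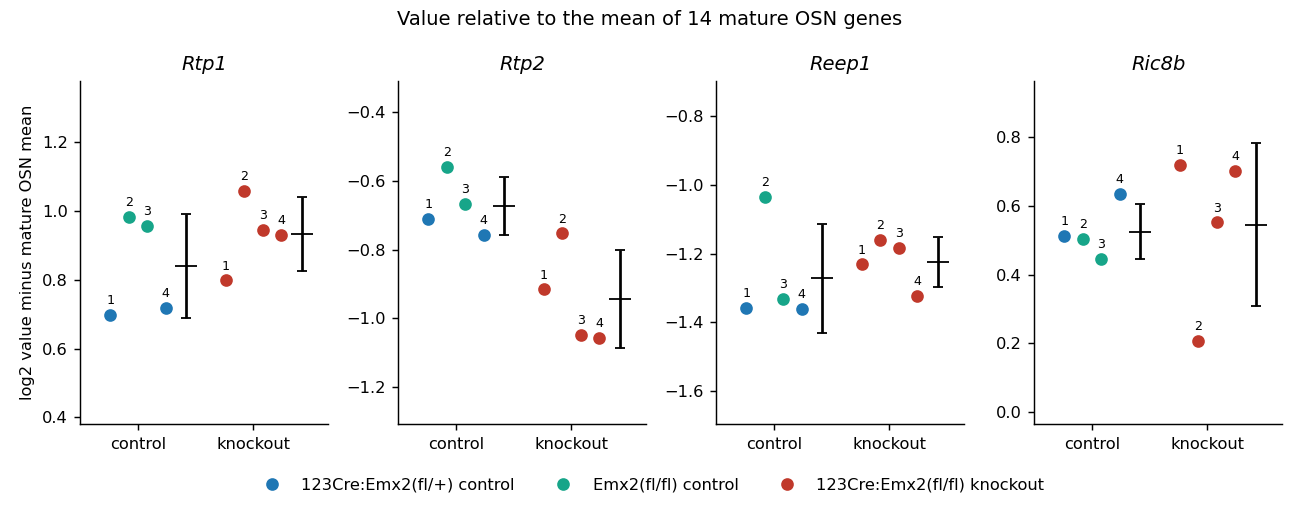
Log2 value of each member minus the mean of 14 mature OSN genes in the same sample (vertical axis, panels of equal span), where each numbered point is 1 sample in the color of its genotype and the bar beside the points gives mean and SD. Rtp2 stands at -1.06 to -0.75 in knockouts and -0.76 to -0.56 in controls, so the groups overlap narrowly through knockout replicate 2 and control replicate 4, and those of the other members overlap more widely.

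The OR mRNAs that these proteins serve, averaged over 1035 rows, stood at 7.28, 6.97, 7.56 and 7.67 in the knockouts and 7.55, 7.30, 7.69 and 7.67 in the controls. Knockout replicate 2, the lowest in OR mRNA, was the highest of the knockouts in Rtp2 and the lowest of all samples in Ric8b, while knockout replicate 3, the lowest of all samples in Rtp2, had an OR mean within the control range. The 8 measured markers of respiratory ciliated cells all stood above 0 in difference (median 0.27, with list means of 10.20 to 10.69 in knockouts and 10.17 to 10.36 in controls), and 9 of 10 immature OSN genes stood below 0 (median -0.20, with list means of 11.08 to 11.16 in knockouts and 11.18 to 11.36 in controls). Markers of olfactory bulb and brain had a median of -0.27 with 5 of 6 below 0 (list means of 7.27 to 7.73 in knockouts and 7.43 to 8.07 in controls), those of vomeronasal neurons -0.16 with 3 of 4 below 0 (10.82 to 11.16 and 11.02 to 11.17), and those of ensheathing cells -0.12 with 3 of 3 below 0 (8.387 to 9.005 and 8.53 to 8.98). Skeletal muscle genes had a median of 0.10 with 7 of 7 above 0 (7.37 to 7.55 and 7.21 to 7.45). Progenitor and basal cell genes had a median of 0.07 with 3 of 6 above 0 (9.63 to 10.29 and 9.74 to 9.91). Of these, the basal keratins Krt5 and Krt14 both differed by 0.43 with overlapping groups. They were highest in knockout replicate 2, at 11.93 and 10.50, and without that sample they differed by 0.08 and 0.14. Trp63 differed by 0.19, while Neurog1, Neurod1 and Kit differed by -0.11, -0.12 and -0.04. Sustentacular cell genes had a median of -0.04 with 3 of 4 below 0 (12.04 to 12.56 and 12.09 to 12.44). Those of macrophages and leukocytes had a median of 0.06 with 4 of 5 above 0 (8.43 to 8.80 and 8.38 to 8.75). No gene of these lists passed in limma, and the part of these cell types in the difference of Rtp2 was not tested.

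The order of sample names was also taken into account, since the samples named 1 to 4 and those named 5 to 8 each hold 2 knockouts and 2 controls. The labels do not call them batches. Rtp2 differed by -0.31 in samples 1 to 4 and by -0.49 in samples 5 to 8, Rtp1 by -0.02 and -0.05, Reep1 by -0.11 and -0.05, and Ric8b by -0.16 and -0.06, so each member kept its sign in both. With this split as a term, Rtp2 had a limma adjusted p of 0.0785. Rtp2 was also lower against either control genotype, by -0.37 (SE 0.10) against 123Cre:Emx2(fl/+) and -0.43 (SE 0.10) against Emx2(fl/fl) in the fit of 3 genotypes, with limma adjusted p-values of 0.876 and 0.437. The controls of the 2 genotypes differed by -0.06 (SE 0.12) for Rtp2.

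**Figure D3:**
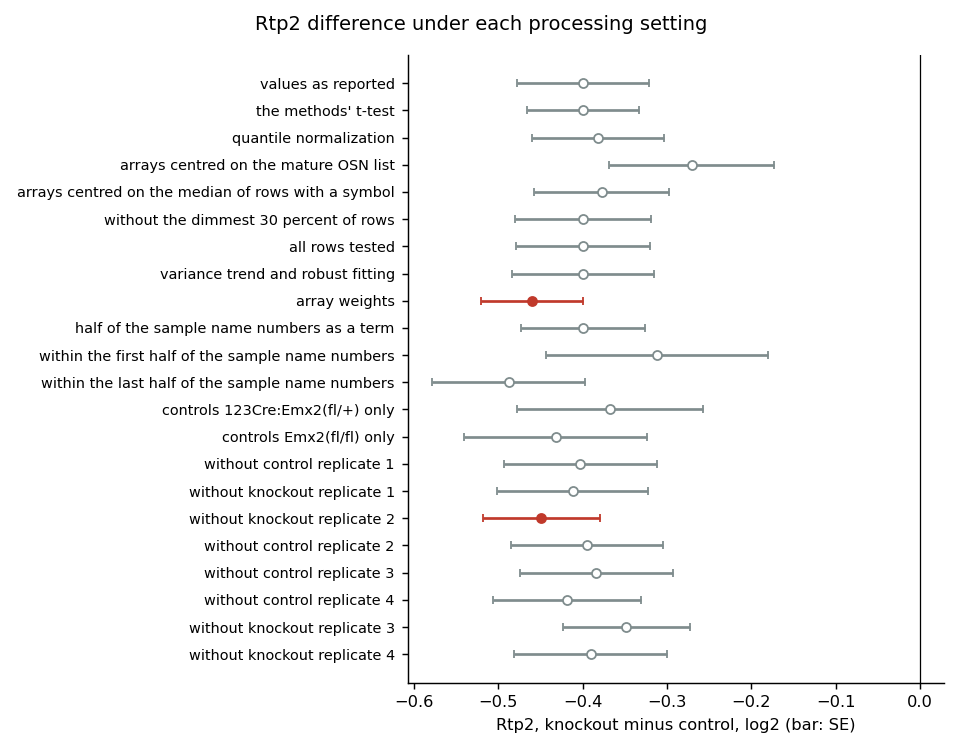
Difference in Rtp2, knockout minus control on the log2 scale (horizontal axis), with its SE as bars, for the values as reported and each alternative setting (vertical axis); filled red points have an adjusted p under 0.05. All values lie between -0.49 and -0.27, and 2 of them pass, array weights and the fit without knockout replicate 2.

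The relatives and partners of the members gave no gene that passed. Over 5 lists with 52 measured genes, 0 passed in limma and 0 with the methods' t-test. An unadjusted p under 0.05 was found for 4 genes with lower and 1 with higher knockouts in limma, and for 8 with the methods' t-test, which is to be read against 6.1% and 7.08% of all rows. Of the 8 other family genes, Reep5 differed by -0.24 (SE 0.11), Rtp4 by -0.21 (SE 0.12) and Rtp3 by 0.16 (SE 0.093), all with overlapping groups. The first shapes ER tubules, Rtp4 is induced by interferon, and Rtp3 is best known in liver. The family's median difference was -0.03, with 5 genes below 0 and 3 above.

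Chaperones and translocation factors of the ER, through which ORs pass while they fold, had a median difference of -0.04 over 15 genes. The largest was that of Dnajb11, a cochaperone of BiP, at -0.20 (SE 0.062, limma adjusted p = 0.558). Its controls lay at 10.40 to 10.47 and its knockouts at 10.14 to 10.27, without overlap. Herpud1, which acts in ER-associated degradation, differed by -0.18 (SE 0.13), and Hspa5, which encodes BiP, by -0.13 (SE 0.10). For genes of ER stress and of the feedback from the first chosen OR, the median over 7 genes was -0.05. Eif2ak3, the kinase PERK, differed by -0.14 (SE 0.085), Ddit3 (CHOP) by -0.13 (SE 0.075) and Atf4 by -0.05 (SE 0.098). Among 8 measured genes that shape ER tubules, the setting in which Reep1 works, the median was -0.10. Atl1, a dynamin-like GTPase that fuses ER tubules, differed by -0.31 (SE 0.089, limma adjusted p = 0.484), with controls at 9.10 to 9.33 and knockouts at 8.74 to 9.04. Lnpk, which sits at tubule junctions, differed by -0.15 (SE 0.23) and Rtn4 by -0.14 (SE 0.12).

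Odorant transduction, the step after OR delivery, had a median difference of -0.04 over 14 measured genes. Its Gnal, Gng13, Adcy3, Cnga2, Cnga4, Cngb1, Ano2, Pde1c and Slc24a4 are also in the mature OSN list, so the 2 lists are not separate evidence. Ano2, the calcium-activated chloride channel that amplifies the odor response, differed by -0.35 (SE 0.066, limma adjusted p = 0.116). It read 11.01, 11.02, 11.07 and 10.98 in the controls and 10.65, 10.76, 10.58 and 10.71 in the knockouts, with no overlap, and it passed with array weights (limma adjusted p = 0.0147). Cngb1 and Cnga4 encode modulatory subunits of the same cyclic nucleotide-gated channel and went opposite ways, at -0.25 (SE 0.080) and 0.27 (SE 0.10), with limma adjusted p-values of 0.618 and 0.771. The differences of the members and of these lists stand side by side in the plot of 95% intervals.

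**Figure D4:**
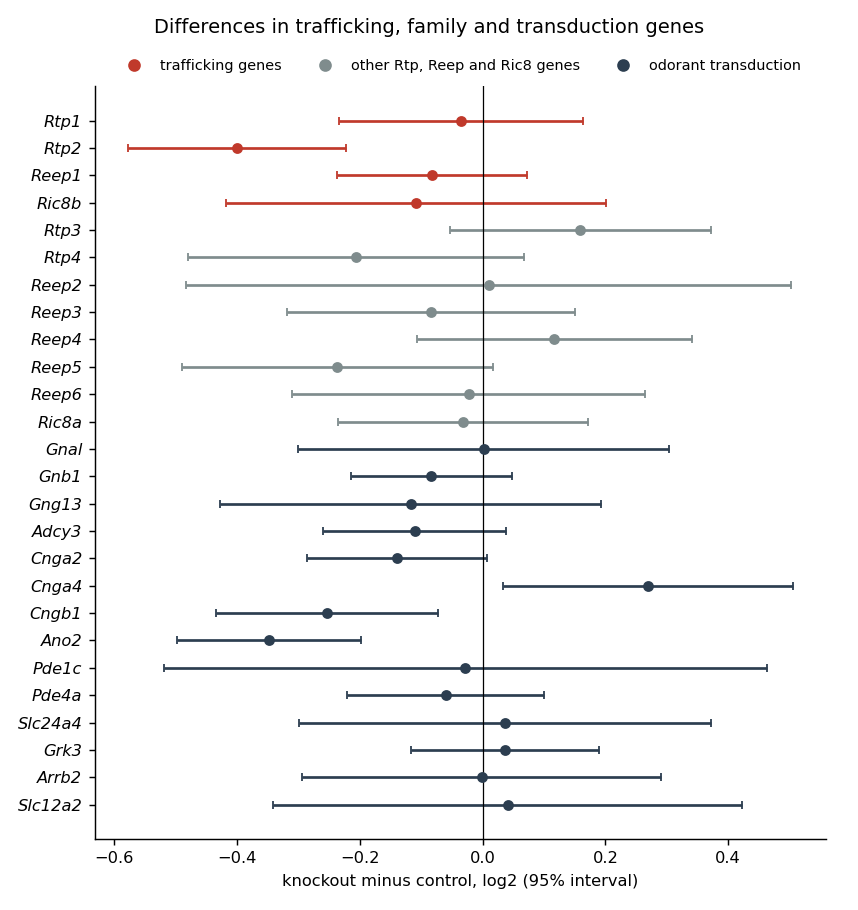
Difference between knockout and control on the log2 scale with its 95% limma interval (horizontal axis) for the 4 trafficking genes in red, 8 other Rtp, Reep and Ric8 genes in gray and 14 odorant transduction genes in dark blue (vertical axis). Rtp2 at -0.40 and Ano2 at -0.35 are the farthest below 0, and none passes an adjusted p of 0.05.

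The genes whose pattern over the 8 samples was nearest to each member were found by the root mean square difference between log2 values, each centered on its own mean, among 15378 rows. Nearest to Rtp2 were Ano2 at 0.0498, Spock1, a secreted proteoglycan, at 0.0589 and Prnp, the prion protein gene, at 0.0591, where Rtp2 itself varied by 0.216 about its mean. Since these genes were picked for likeness to Rtp2 over the same samples, their group differences largely restate that choice, and 2.54% of all rows have knockouts below every control as they do. Nearest to Rtp1 were Pnma1, Eno4 and Jag2, at 0.0314 to 0.0417. Dip2b, Fam160b2 and Pde4a were nearest to Reep1, at 0.0259 to 0.0308, and Intu, Tulp4 and Zfyve9 to Ric8b, at 0.0622 to 0.0693. The groups overlapped for all 9, and the 3 near Ric8b were, like it, lowest in knockout replicate 2. All 9 were likewise picked for likeness over the same samples, so these traits largely restate that choice. Among the members, Rtp1 and Reep1 were closest to each other at 0.0991, and Rtp2 and Ric8b were farthest apart at 0.279. Rtp2 and Rtp1 were 0.209 apart. Such distances also grow with a gene's own variation about its mean, which was 0.102 for Rtp1, 0.0718 for Reep1 and 0.193 for Ric8b. The order of the pairs is therefore no measure of shared pattern alone.

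**Figure D5:**
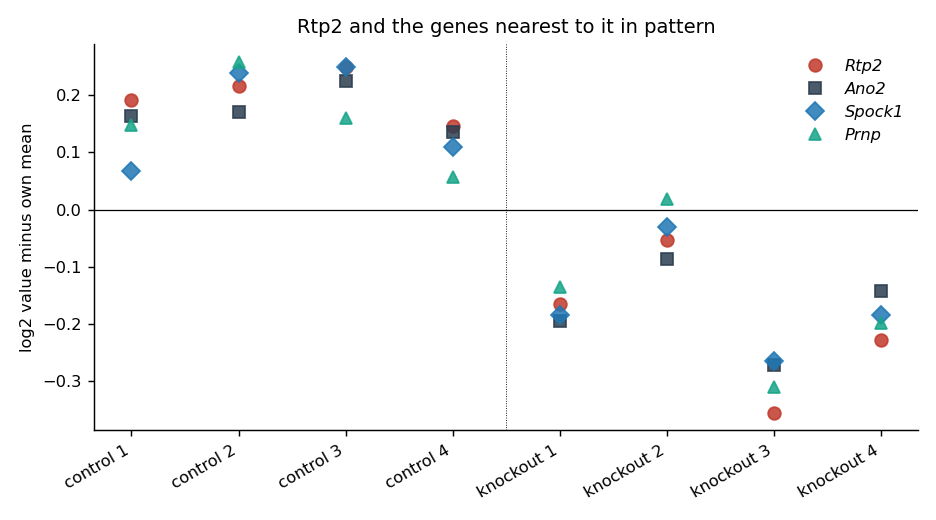
Log2 value minus the gene's own mean over 8 samples (vertical axis) for Rtp2 and the 3 genes nearest to it in pattern, by sample (horizontal axis, controls left of the dotted line). The controls lie above 0 for every gene, and the knockouts lie below 0 except for Prnp in knockout replicate 2.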

How the data were processed

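Total RNA of dissected olfactory mucosa was labeled as biotinylated cRNA and hybridized by the authors to Affymetrix Mouse Gene 1.0 ST arrays. The authors deposited 1 log2 value per transcript cluster, which combines the probes of all exons of a gene. The submitters' notes name Affymetrix Expression Console, and how it corrected background and normalized is, like its version, not given in the sources used. The scale was read from the values (2.78 to 14.8 in all arrays), and any centring by the authors stays unknown. The platform annotation gives 1 symbol for 21789 rows, several for 1621 and none for 12147. Of those with 1 symbol, 21698 matched RefSeq (GRCm38.p6) by gene number. The 8 arrays all differed in their values, and their number limits the precision.

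All 23410 rows with a symbol were tested with limma 3.58.1 (lmFit, eBayes, two-sided) in R 4.3.3, with Benjamini-Hochberg adjustment. For single quantities the test was an exact permutation over the 70 assignments of samples to groups, two-sided. The procedure was tested on simulated data. Where a listed gene had several rows, the row of highest mean stood for it, and genes with no row of 1 symbol were left out. The text names the members, Emx2, Lhx2, Omp and Gap43 as checks, the genes called and the 3 largest differences of each pathway list, and the 3 nearest patterns per member. Gnal enters as the partner of Ric8b. The chromosomal neighbors, the OR mean, S100a5 and the named progenitor and basal cell genes were added after values were seen. Members and lists were chosen with earlier results of these data known. Alternatives are given in the closing section.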

Additional observations from a re-analysis of the deposited data

Results flagged for a closer look

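Reep1 minus the mature OSN mean was -1.03 in control replicate 2, far above the other controls at -1.36, -1.33 and -1.36. It was the only sample of 20 group and measure combinations whose gap to its nearest neighbor exceeded Dixon's 95% critical value for its group, where chance gives about 1 in 20. The mature OSN mean of that sample was the lowest of the controls, at 11.51, and its Reep1 value the highest of all samples, at 10.47.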

How the results depend on the processing

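Rtp2 kept its sign in 21 of 21 alternatives, between -0.49 and -0.27, and passed with array weights (-0.46) and without knockout replicate 2 (-0.45). Leaving out 1 sample gave -0.45 to -0.35 for Rtp2, -0.073 to 0.018 for Rtp1, -0.10 to -0.035 for Reep1 and -0.19 to 0.019 for Ric8b. Rtp1 turned sign without knockout replicate 1 or control replicate 3 and with 123Cre:Emx2(fl/+) controls only (0.068), Ric8b without knockout replicate 2 and with array weights (0.021). With arrays centred on mature OSN genes, Rtp1, Reep1 and Ric8b stood at 0.094, 0.047 and 0.021. That centring adds 1 constant to all values of an array. It moved the list medians to 0.10 for the other family genes, 0.087 for ER folding, 0.079 for OR feedback and ER stress, 0.032 for tubule shaping, 0.085 for transduction, 0.015 for mature OSNs, -0.072 for immature OSNs, 0.20 for progenitors and basal cells, -0.030 for vomeronasal neurons and 0.40 for respiratory ciliated cells, and the calls over all rows from 2 higher and 82 lower to 13 higher and 56 lower. Leaving out 1 sample gave medians of -0.17 to -0.024 for tubule shaping, -0.083 to -0.024 for transduction, -0.082 to -0.031 for ER folding, -0.099 to 0.0018 for OR feedback and ER stress (above 0 without knockout replicate 3), -0.098 to 0.017 for the other family genes (above 0 without knockout replicate 3 or 4) and 0.21 to 0.37 for ciliated cells, and 0 to 1 mature OSN genes passed, S100a5 without knockout replicate 2. Rtp2 minus Rtp1 kept its sign throughout, at -0.42 to -0.33 with 1 sample left out, -0.36 with the split by sample names as a term, -0.29 and -0.44 within samples 1 to 4 and 5 to 8, and -0.44 and -0.29 with 123Cre:Emx2(fl/+) or Emx2(fl/fl) controls only. In these splits and with 123Cre:Emx2(fl/+) or Emx2(fl/fl) controls only, the smallest p the samples allow is above the threshold. With 1 sample left out, Ric8b minus Gnal ran from -0.16 (past the threshold, without knockout replicate 1) to -0.064, and Rtp2 minus the mature OSN mean from -0.33 (past it, without knockout replicate 2) to -0.23. Each was past the threshold only without the single knockout that lay inside its control range. Relative to the mature OSN mean, Rtp1 and Reep1 turned to -0.037 and -0.041 with Emx2(fl/fl) controls only, and Ric8b to -0.045 within samples 1 to 4, to -0.030 with 123Cre:Emx2(fl/+) controls only, and to values from -0.038 to 0.13 with 1 sample left out, below 0 without knockout replicate 1, knockout replicate 4 or control replicate 3. The number of rows called, 84, was 28 with the methods' t-test, 27 without the dimmest 30% of rows, 224 with array weights, 0 within samples 1 to 4, 32 and 25 with 123Cre:Emx2(fl/+) or Emx2(fl/fl) controls only, and 46 (without knockout replicate 1) to 132 (without knockout replicate 2). The causes were not tested. No paired analysis was possible because the labels give no shared replicate numbers.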
